A study of Brassica rapa with 9 samples.

Results

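Aliphatic glucosinolates are sulfur-rich defence compounds that Brassica plants make from methionine. In Arabidopsis, where the pathway is best known, MAM (methylthioalkylmalate synthase) lengthens the methionine side chain, the cytochromes P450 CYP79F1 and CYP83A1 build the core structure in consecutive steps through aldoximes, and AOP2, a dioxygenase, converts methylsulfinylalkyl side chains to alkenyl ones. Members of this pathway were followed here as 9 gene IDs out of the 41020 in the count files. They comprise 3 MAM IDs (Bra013007, Bra013011 and Bra029355), 1 CYP79F1 ID (Bra026058), 2 CYP83A1 IDs (Bra032734 and Bra016908) and 3 AOP2 IDs (Bra034180, Bra000848 and Bra018521). The enzyme names are those under which the IDs were selected. The files hold IDs only, and a RefSeq gene table of another assembly held none of the 9, so the names could not be checked and copies could not be compared per unit of length.

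The libraries came from whole seedlings of Brassica rapa, cultivar Chiifu, harvested at 2 weeks from half-strength MS medium with 0.5% sucrose. All of them were kept without heat treatment in conditions abbreviated LD in the labels. NT plants were non-transgenic Kimchi cabbage, AtPHYB plants carried the red and far-red light receptor phytochrome B of Arabidopsis thaliana, and G564E plants carried that receptor with glycine replaced by glutamate at residue 564. Each genotype had 3 libraries. The promoter of the transgenes and the number of plant lines were not given in the sources used here. It was also not stated whether replicates were separate plants. Each p-value therefore sets a difference between genotypes against the spread among libraries of the same label, part of which may be technical. In edgeR that spread was estimated from all genotypes together. Genotype and plant line cannot be told apart, and in whole seedlings fewer cells of a type and less RNA per cell cannot be told apart either.

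Libraries held 15262884 to 20998541 counted reads, so 1 read was worth 0.0445 to 0.0678 CPM, that is, reads per 1000000 reads of TMM-scaled library size. Across all tested genes G564E replicate 1 stood apart from its group, with Spearman correlations of 0.915 and 0.912 to the other G564E libraries. Values that G564E replicate 1 moves most are also given without it. NT replicate 3 correlated slightly more with the AtPHYB libraries (0.9687, 0.9701 and 0.9779) than with NT replicates 1 and 2 (0.9665 and 0.963). Tissue markers could not be looked up without gene names, and the introduced receptor could not be tied to an ID.

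The MAM, CYP79F1 and AOP2 IDs had few or no reads in the seedlings. The CYP83A1 IDs had more, with 465 reads in all at Bra032734 and 700 at Bra016908. Their mean CPM was above that of 46.0% and 50.8% of all IDs, respectively. Of the 9 IDs, 7 had at least 1 read in some library, 6 had over 10 reads in all libraries together, and 3 passed the filter on low counts and were tested (Bra029355, Bra032734 and Bra016908). Among all 41020 IDs, 5057 (12.33%) had no read in any library, and 2 of the AOP2 IDs were among them. The plot of CPM by library shows the 6 IDs with over 10 reads.

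**Figure D1:**
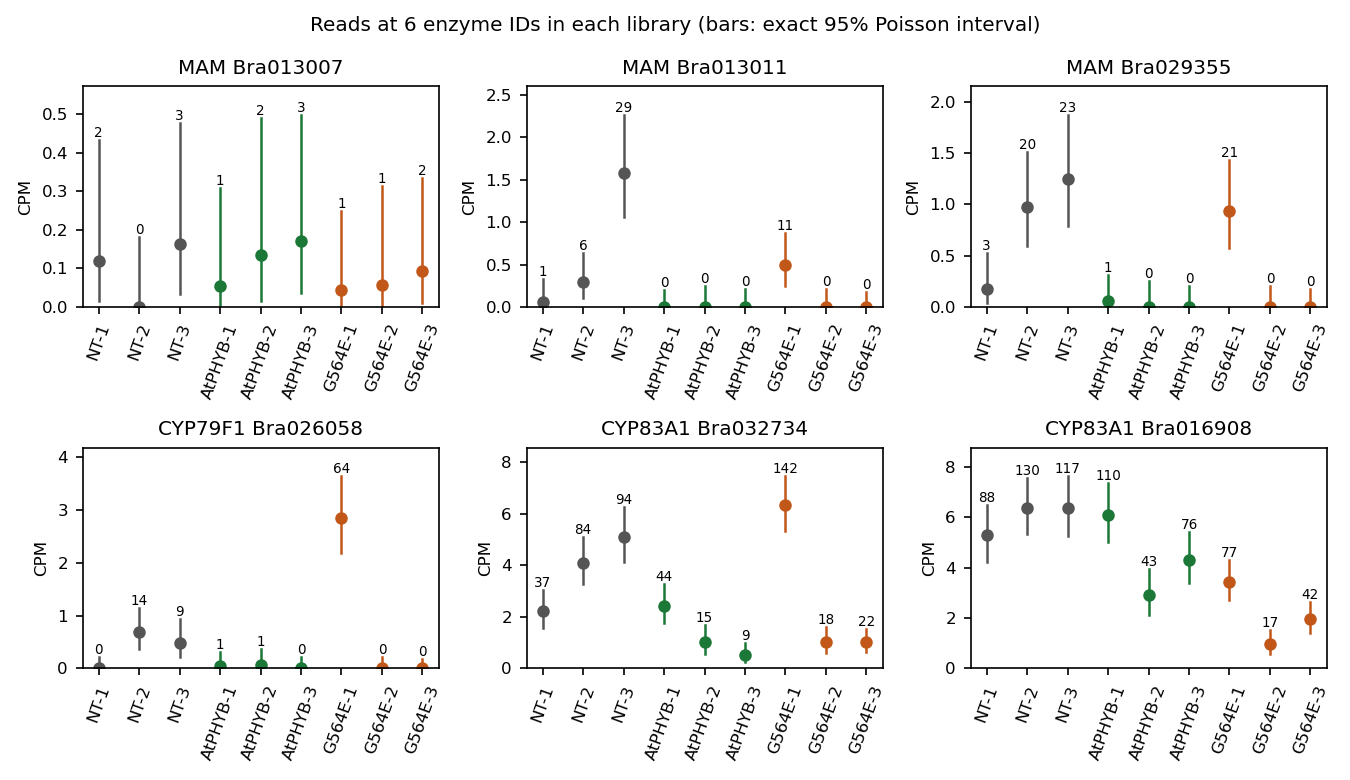
CPM (vertical axis, linear from 0) at 6 enzyme IDs in each of the 9 libraries (horizontal axis, genotype and replicate number), with exact 95% Poisson intervals as bars and the number of reads printed above each. At Bra029355 and Bra026058, NT replicates 2 and 3 and G564E replicate 1 stand above the other 6 libraries, whereas Bra016908 has reads throughout, from 17 in G564E replicate 2 to 130 in NT replicate 2.

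MAM, the chain elongation enzyme of the set, was represented by 3 IDs with few reads. Bra029355 had 3, 20 and 23 reads in NT replicates 1, 2 and 3, then 1, 0 and 0 reads in the AtPHYB replicates and 21, 0 and 0 reads in the G564E replicates. The NT and AtPHYB libraries did not overlap, while G564E held 1 library at the level of NT and 2 without a read. Such a lower, non-overlapping position of AtPHYB against NT occurred at 13.5% of all tested genes. Mean CPM ± SD (n = 3) of Bra029355 was 0.803 ± 0.556 for NT, 0.0185 ± 0.0320 for AtPHYB and 0.312 ± 0.540 for G564E, and the G564E mean was 0 without replicate 1.

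Bra013011, the second MAM ID, had 1, 6 and 29 reads in the NT replicates, no read in AtPHYB, and 11, 0 and 0 reads in the G564E replicates. The highest library was NT replicate 3 at 1.58 CPM, with an exact 95% Poisson interval of 1.06 to 2.26 that lies above the interval of every other library. Summed over its libraries NT held at least 10.9-fold more than AtPHYB, computed against a floor of 3 reads over the AtPHYB group. That bound rests on NT replicate 3, and was 3.17-fold without it. The third MAM ID, Bra013007, had between 0 and 3 reads in every library and 5, 6 and 4 reads in NT, AtPHYB and G564E, so no difference between genotypes was detectable at this depth. Poisson and binomial intervals, and floors, speak for counting error alone, since PCR copies are not independent molecules.

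CYP79F1, the P450 that in Arabidopsis turns chain-elongated methionine into aldoximes, had most of its reads in 1 library. Bra026058 had 0, 14 and 9 reads in the NT replicates, 1, 1 and 0 in the AtPHYB replicates and 64, 0 and 0 in the G564E replicates. G564E replicate 1 reached 2.85 CPM (exact 95% Poisson interval 2.20 to 3.64), above the upper limits of 0.208 and 0.171 CPM for the empty G564E libraries. The genotype means were 0.391 ± 0.353 CPM in NT, 0.0411 ± 0.0361 CPM in AtPHYB and 0.950 ± 1.65 CPM in G564E (SD, n = 3 each), so the G564E mean rests on replicate 1 and was 0 without it. The summed reads of NT exceeded those of AtPHYB 10.4-fold, the exact 95% counting interval being 2.58 to 91.3, which leaves out the spread between libraries.

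Bra026058, Bra013011, Bra013007 and the AOP2 ID Bra034180 failed the filter and were compared on CPM by exact 2-sided permutation tests, 12 in all. With 3 libraries against 3 the smallest possible p is 0.1, and no test could pass 0.05. That smallest value was reached once, for Bra013011 in AtPHYB against NT (exact p = 0.1, adjusted p = 0.9 over the 12 tests). For Bra026058 the exact p was 0.4 for AtPHYB against NT and 1 for both comparisons of G564E.

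CYP83A1, the P450 that in Arabidopsis oxidises the aldoximes, had reads in every library at both IDs. Bra016908 had 88, 130 and 117 reads in the NT replicates, 110, 43 and 76 in the AtPHYB replicates and 77, 17 and 42 in the G564E replicates. Each NT library was above each G564E library, and AtPHYB overlapped both. Its mean CPM ± SD (n = 3) was 5.997 ± 0.627 for NT, 4.44 ± 1.59 for AtPHYB and 2.11 ± 1.24 for G564E.

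Bra032734, the other CYP83A1 ID, had 37, 84 and 94 reads in the NT replicates, 44, 15 and 9 in the AtPHYB replicates and 142, 18 and 22 in the G564E replicates. G564E replicate 1 was the highest of the 9 libraries at 6.32 CPM, 6.20 times the higher of the other G564E libraries. For Bra016908 the same library was 1.76 times the higher of the other pair. A level in G564E replicate 1 of at least 4 times both other G564E libraries occurred at 3.69% of all tested genes. The genotype means of Bra032734 were 3.81 ± 1.47 CPM in NT, 1.32 ± 1.00 CPM in AtPHYB and 2.79 ± 3.06 CPM in G564E (SD, n = 3 each). The G564E mean of Bra032734 was 1.02 CPM without replicate 1.

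AOP2, the side-chain enzyme, was near or below detection. Bra034180 had 1 read each in NT replicates 2 and 3 and none elsewhere. Bra000848 and Bra018521 had no read in any of the 9 libraries, where a floor of 3 reads corresponds to 0.0179 CPM over all libraries together and the exact 95% Poisson upper limit, as used for single libraries above, to 0.0220 CPM. Whether any genotype differs in AOP2 was therefore not detectable at this depth.

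Tests across all genes used edgeR's quasi-likelihood model on the counts of the 9 libraries, with p-values adjusted by Benjamini-Hochberg over 27967 genes and calls made below 0.05. For AtPHYB against NT, 0 of the 3 tested members were called, beside 0.19% of all genes, and 1 of the 3 had an unadjusted p under 0.05, as did 13.6% of all genes. That one was the MAM ID Bra029355, with a log2 fold change of -4.95 ± 1.87 (SE), an edgeR adjusted p of 0.310 and an unadjusted one of 0.0270. Bra029355 passed the low-count filter only through NT replicates 2 and 3 and G564E replicate 1, the libraries where it was high. Its unadjusted p is therefore descriptive and no support for a difference. Its summed reads were 46 in NT and 1 in AtPHYB, or 41.8-fold more per scaled library in NT (exact 95% counting interval 7.13 to 1684). The single AtPHYB read was in replicate 1, and without that library the fitted log2 fold change was -6.93 against a group with no read, with an edgeR adjusted p of 0.546. The CYP83A1 IDs had log2 fold changes of -1.52 ± 0.82 (Bra032734, edgeR adjusted p = 0.458) and -0.43 ± 0.43 (Bra016908, edgeR adjusted p = 0.696). DESeq2 and limma-voom also called 0 of the 3.

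For G564E against NT, 1 of the 3 tested members was called, the CYP83A1 ID Bra016908, which fell by 1.49 ± 0.44 (SE) on the log2 scale (edgeR adjusted p = 0.0347). Lower calls made up 13.2% of all genes in this comparison and calls in either direction 27%, and at 21.6% of genes G564E lay below NT without overlap. The call was lost without any one of NT replicates 1, 2 and 3, AtPHYB replicate 3 and G564E replicates 2 and 3, with edgeR adjusted p between 0.0567 and 0.0900, where AtPHYB enters through the shared estimate of the spread. The log2 fold change stayed between -2.03 and -1.17 with any single library left out. The call was also lost when libraries were scaled by size alone (log2 fold change -1.17, edgeR adjusted p = 0.0809), by upper quartile (0.0519), or fitted for these genotypes alone (0.0653). With scaling by size alone 7832 genes were higher and 2180 lower, so that lower calls made up 7.79% of all genes. The adjusted p was 0.00554 in DESeq2 and 0.0206 in limma-voom.

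The other tested members were not called against NT with all G564E libraries in. Bra029355 had a log2 fold change of -1.31 ± 1.26 (edgeR adjusted p = 0.469) and Bra032734 one of -0.45 ± 0.79 (edgeR adjusted p = 0.707). Without G564E replicate 1 all 3 members were called lower in G564E, with log2 fold changes of -6.89 for Bra029355, -1.90 for Bra032734 and -2.03 for Bra016908 (edgeR adjusted p of 0.0159, 0.0437 and 0.00546). Lower calls over all genes rose to 19.7% in that fit. The G564E group then holds 2 libraries, and the fitted value of Bra029355 sets NT against 2 libraries with no read, so its size depends on the prior count and is no bound.

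For G564E against AtPHYB, 0 of the 3 tested members were called, beside 35% of all genes, and 1 of the 3 had an unadjusted p under 0.05, as did 46.3% of all genes. It was Bra016908, with a log2 fold change of -1.06 ± 0.44 (edgeR adjusted p = 0.0885, unadjusted 0.0383). Same-numbered AtPHYB and G564E libraries deviated together across all tested genes (correlations of 0.41, 0.31 and 0.12), and were taken as pairs. This pairing is an assumption made from these data. With the replicate block the adjusted p of Bra016908 was 0.0639 in the 9-library fit, which also blocks NT by number. It was 0.0309, past the threshold, in a blocked fit of the 6 libraries alone, chosen after seeing the data (edgeR). Bra029355 (3.64 ± 1.99, adjusted p = 0.184) and Bra032734 (1.07 ± 0.82, adjusted p = 0.336) pointed the other way in edgeR. Those directions came from 1 library: without G564E replicate 1 the log2 fold changes were -1.95 and -0.39 (edgeR adjusted p of 0.507 and 0.640). The value of Bra029355 then sets 1 AtPHYB read against G564E libraries with no read, so its sign and size rest on that read and the prior count. Bra016908 was called lower at -1.60 (edgeR adjusted p = 0.0118), in a fit that called 22.9% of all genes lower. Both comparisons with NT use the same 3 NT libraries, and both comparisons of G564E use the same G564E libraries.

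**Figure D2:**
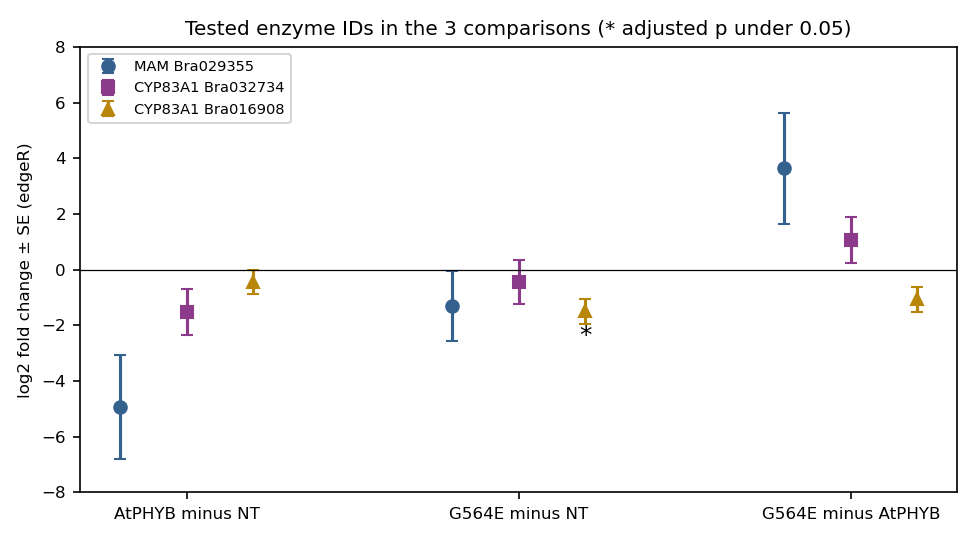
Log2 fold changes with standard errors from edgeR (vertical axis) for the 3 tested enzyme IDs in the 3 comparisons (horizontal axis), and an asterisk at an adjusted p under 0.05. The 1 asterisk marks Bra016908 in G564E against NT at -1.49, and the longest bars belong to Bra029355, with standard errors of 1.87, 1.26 and 1.99.

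The copies of CYP83A1 were set against each other within each library, which does not depend on scaling between libraries. Bra032734 took 29.6%, 39.3% and 44.5% of the CYP83A1 reads in the NT replicates, 28.6%, 25.9% and 10.6% in the AtPHYB replicates and 64.8%, 51.4% and 34.4% in the G564E replicates. Its share was lower in every AtPHYB library than in any NT or G564E library, but only narrowly so against NT. AtPHYB replicate 1 stood at 28.6% (exact 95% binomial interval 21.6% to 36.4%) and NT replicate 1 at 29.6% (21.8% to 38.4%). Counting error alone could reverse these libraries. The share in G564E replicate 1 (exact 95% binomial interval 58.1% to 71.2%) and that in AtPHYB replicate 3 (4.96% to 19.2%) were the extremes. The mean log2 ratio of Bra032734 to Bra016908 ± SD (n = 3) was -0.73 ± 0.47 for NT, -1.94 ± 0.93 for AtPHYB and 0.01 ± 0.90 for G564E.

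The difference in this log2 ratio was -1.21 for AtPHYB against NT, 0.74 for G564E against NT and 1.95 for G564E against AtPHYB. Exact 2-sided permutation tests gave p = 0.1, 0.3 and 0.1, where 0.1 is the smallest p that 3 against 3 allows, and adjusted p of 0.15, 0.3 and 0.15 over the 3 tests. Within the pairs of same-numbered G564E and AtPHYB libraries the differences were 2.19, 1.57 and 2.09, higher in G564E in 3 of 3 pairs. The exact sign-flip permutation p was 0.25, the smallest that 3 pairs allow. Every G564E ratio lay above every AtPHYB ratio, so any pairing would give 3 of 3 and this p. The paired test therefore adds nothing to the unpaired one. With single libraries left out the G564E against AtPHYB difference stayed between 1.41 and 2.42, while that of AtPHYB against NT ran from -1.52 to -0.67, the latter without AtPHYB replicate 3. The G564E against NT difference was 0.31 without G564E replicate 1, 0.48 without NT replicate 1 and 1.21 without G564E replicate 3. Reads that match both copies could have been dropped or split by the counting, whose settings were not given in the sources used here. No copy ratio was tested for MAM or AOP2, because fewer than 2 of their IDs passed the filter.

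**Figure D3:**
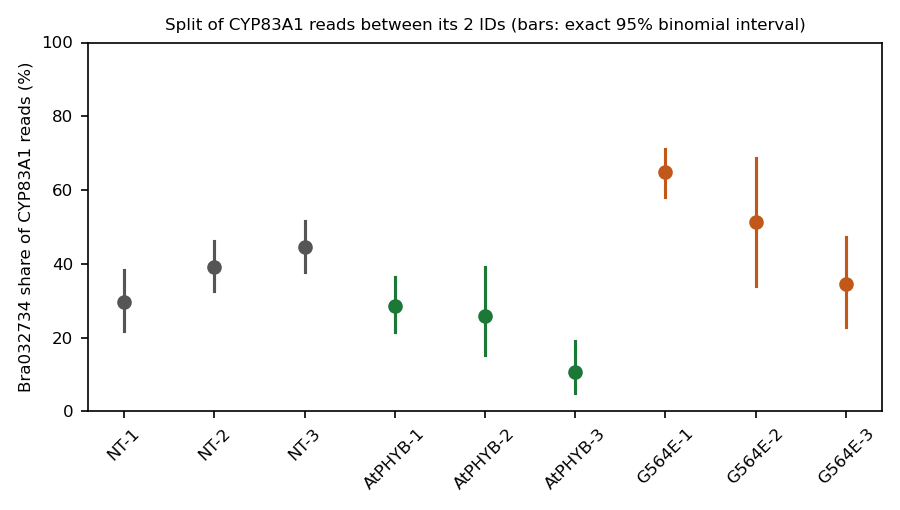
Share of the CYP83A1 reads that were counted at Bra032734 (vertical axis, in percent) in each library (horizontal axis), with exact 95% binomial intervals as bars. AtPHYB libraries lie between 10.6% and 28.6%, NT libraries between 29.6% and 44.5%, and G564E libraries between 34.4% and 64.8%.

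IDs of MAM, CYP79F1 and CYP83A1 were highest in the same libraries. NT replicates 2 and 3 and G564E replicate 1 held the 3 highest CPM values at Bra013011, Bra029355, Bra026058 and Bra032734. The other 6 libraries together held 1 of the 47 reads of Bra013011, 4 of the 68 reads of Bra029355, 2 of the 89 reads of Bra026058 and 145 of the 465 reads of Bra032734. This is a description of libraries singled out after their values were seen, and the first 3 of these IDs have over 10 reads only through them. At Bra029355 the lowest of the 3 stood at 0.935 CPM and the highest of the other 6 libraries at 0.180 CPM. At Bra032734 these values were 4.11 and 2.44 CPM. Bra016908 and Bra013007 did not show this order. The order does not follow genotype, since it divides both the NT and the G564E libraries. How many of all tested genes share the order is not given here, so it is not known to be particular to these IDs.

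Likeness to CYP79F1 was measured as the root mean square (RMS) difference in log2 CPM over the 9 libraries, after each gene was centred on its own mean, so that a smaller value means a more similar pattern. The comparison set was the 19338 tested genes with a mean of at least 5 CPM, with a median RMS difference of 1.69. MAM Bra029355 lay at 0.84, closer than every gene of the set, CYP83A1 Bra032734 at 0.91 with 1 gene closer, and MAM Bra013011 at 1.01 with 10 genes closer. CYP83A1 Bra016908 lay at 1.55 with 20.4% of the set closer. MAM Bra013007 lay at 1.85 with 80.2% closer, beyond the 1.62 of a completely flat gene. AOP2 Bra034180, with 2 reads in all, lay at 1.53 with 15.9% closer, so a nearly empty ID ranked ahead of Bra016908. The AOP2 IDs without a read, Bra000848 and Bra018521, lay at 1.62 with 33.4% closer. The prior count of 2 reads flattens patterns of sparse genes such as these. In the empty G564E libraries, for instance, CYP79F1 stood at -1.27 and Bra029355 at -1.37. CYP79F1 and all other members have means under 5 CPM, so genes as sparse as these were not in the set. The ranks therefore do not show whether these IDs are closer to CYP79F1 than other sparse genes are.

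Within the set the most similar genes were Bra039563 (RMS 0.90) and Bra004748 (RMS 0.92), neither of which has a name in the files. Bra039563 stood at 199 CPM in G564E replicate 1 and between 6.71 and 55.3 CPM elsewhere, with NT replicate 2 next. Bra004748 stood at 92.8 CPM in G564E replicate 1 and between 6.30 and 40.1 CPM elsewhere. Without G564E replicate 1, Bra029355 and Bra032734 each had 2 genes closer to CYP79F1 and Bra013011 had 12, whereas Bra039563 and Bra004748 had 474 and 75. With any single library left out, Bra029355 had 0 to 5 genes closer, Bra032734 2 to 9 and Bra013011 2 to 32. The share of the set closer than Bra016908 went from 20.4% to 2.75% without G564E replicate 1, and to 36.8% without NT replicate 2.

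**Figure D4:**
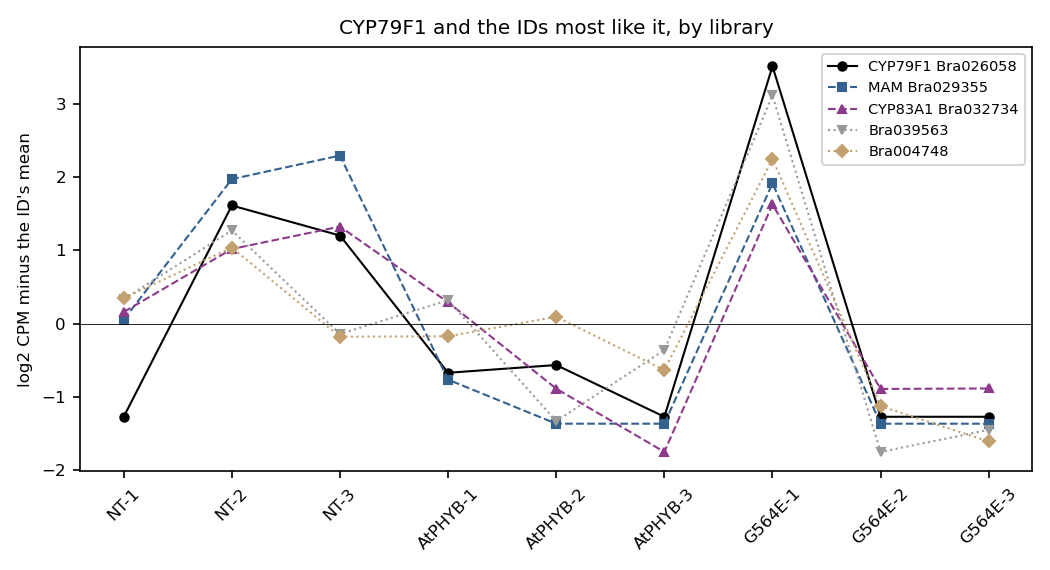
Log2 CPM of CYP79F1 (Bra026058), 2 other members and the 2 most similar genes of the comparison set, each minus its own mean (vertical axis), by library (horizontal axis); lines only join the points of a gene. CYP79F1 lies 3.51 above its mean in G564E replicate 1, where every ID shown but MAM Bra029355 has its highest point; that ID is highest in NT replicate 3.

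Summed by enzyme, MAM stood at 1.54 ± 1.33 CPM in NT, 0.139 ± 0.0299 CPM in AtPHYB and 0.540 ± 0.806 CPM in G564E (SD, n = 3 each, described without a test). The NT mean of MAM was 0.816 CPM without NT replicate 3. The CYP83A1 sum was 9.81 ± 2.07 CPM in NT, 5.76 ± 2.44 CPM in AtPHYB and 4.90 ± 4.23 CPM in G564E. Without G564E replicate 1 the G564E means of MAM and CYP83A1 were 0.0745 and 2.47 CPM. With scaling by library size alone the CYP83A1 sum was 5.19 CPM in AtPHYB and 5.90 CPM in G564E, the opposite order. The 3 AtPHYB libraries held 7 MAM reads in all, 6 of them at Bra013007.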

How the data were processed

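Gene expression was measured by stranded mRNA sequencing of 9 libraries. Each deposited file holds 1 library as unnormalised read counts by gene ID, which its whole numbers show. FastQC 0.11.8, Trimmomatic 0.39, TopHat2, HTSeq and edgeR are named in the submitters' processing notes, whereas the tool settings, strand option, annotation and genome build were not given in the sources used here. Groups came from the sample titles. In R 4.3.3 with edgeR 4.0.16, counts were filtered (filterByExpr defaults), TMM-scaled and fitted with 1 mean per genotype over all libraries (estimateDisp, glmQLFit, glmQLFTest, 2-sided). SE is the log2 fold change divided by the root of F. CPM was computed on TMM-scaled library sizes. Copy ratios added 0.5 to each count. The fit was tested on simulated data. Alternatives were other scalings, filters and sample sets, DESeq2 1.42.0, limma-voom 3.58.1, a replicate block and single libraries left out.

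The members and lists were chosen with earlier results of these data known. All 9 members are named. Besides them the 2 most similar genes to CYP79F1 are named, by the RMS rule. Lists of further pathway genes and tissue markers were set by symbol, and none could be filled, because the RefSeq table (CAAS_Brap_v3.01) matched 1 of the 41020 IDs and no member.

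Deviations from genotype means, correlated across tested genes between same-numbered libraries, were 0.41, 0.31 and 0.12 for AtPHYB and G564E, all over 0.1, so these numbers were taken to pair the libraries, from the data and not from a label. They were -0.08 to 0.09 for AtPHYB and NT and -0.17 to 0.02 for G564E and NT, which share only a number. Such correlations are not given for libraries with different numbers, so it is not known whether the pairs are particular. In Spearman correlation G564E replicate 2 was nearer to AtPHYB replicate 3 (0.882) than to AtPHYB replicate 2 (0.875).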

Additional observations from a re-analysis of the deposited data

How the results depend on the processing

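For G564E against NT the count of 1 called member was 0 with library size alone, upper quartile, the compared genotypes alone and an adjusted p under 0.01, and 0 to 3 when 1 library at a time was dropped. It was 1 with no low-count filter, with at least 1 CPM in 3 libraries, with DESeq2 size factors, in DESeq2, in limma-voom and with the replicate block (Bra016908, edgeR adjusted p = 0.0256). That block also groups NT libraries, which share only a number with the others. For G564E against AtPHYB the count of 0 became 1 in a blocked fit of those genotypes alone, chosen after seeing the data, and 0 to 1 when 1 library at a time was dropped. For AtPHYB against NT it was 0 under every alternative run. The cause of these changes was not tested. Bra029355 failed the filter of at least 1 CPM in 3 libraries and was not among the members tested there. It was also not tested for AtPHYB against NT or G564E against AtPHYB in fits of the compared genotypes alone. Without G564E replicate 1 the G564E against AtPHYB log2 fold changes of Bra029355 and Bra032734 reversed in sign, to -1.95 and -0.39. For Bra029355 that reversal rests on 1 AtPHYB read. Over all single libraries left out these fold changes ran from -1.95 to 5.60 and from -0.39 to 1.86, the highest without AtPHYB replicate 1.

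Over all genes, the 53 called for AtPHYB against NT became 961 in DESeq2, 199 for the compared genotypes alone, 17 with the replicate block and 6 at an adjusted p under 0.01. The counts of 7545 and 9777 for G564E against NT and AtPHYB became 3170 and 4684 at that threshold. Single libraries left out gave 6 to 783, 4829 to 10702 and 6063 to 12878. The 783 for AtPHYB against NT were called without NT replicate 3. With the replicate block the G564E counts were 6655 and 9045. The block changed no other call of a member. With single libraries left out the copy ratio differences ran from -1.52 to -0.67 for AtPHYB against NT, 0.31 to 1.21 for G564E against NT and 1.41 to 2.42 for G564E against AtPHYB; with a pseudocount of 5 they were -0.99, 0.72 and 1.71. CYP79F1 in G564E ran from 0 to 1.43 CPM and MAM in G564E from 0.0745 to 0.781 CPM. The bound of Bra013011 ran from 3.17 to 15.1. A few reads decide most values here, so absence of a call at MAM, CYP79F1 or AOP2 sets no limit on small changes.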
